A study of Mus musculus with 9 samples.

Results

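Interferon-stimulated genes were followed across 9 RNA sequencing libraries of mouse aortic arch, the curved vessel segment above the heart. The set was a list of 41 genes chosen by name: antiviral effectors, nucleic acid sensors, interferon-induced GTPases, antigen processing genes and the STAT and IRF transcription factors that drive them. The deposited expression table held 39 of the 41 among its 21989 genes, and Mx1 and Mx2 are not analysed here. The high dose group was ApoE-/- mice on a high-fat diet that received ZCL, a preparation known here only by its abbreviation, by gavage at 5.12 g/kg/day over 15 weeks. The model group was ApoE-/- mice on the same high-fat diet for 15 weeks, with no treatment named. The control group was C57BL/6J mice on standard diet. Each group had 3 libraries, all carrying batch label 1. Mice without apolipoprotein E clear plasma lipoproteins poorly and develop atherosclerotic plaques, and the deletion is present in every cell type. Genotype and diet differed together between model and control and cannot be told apart. Nothing in the labels ties the libraries to individual mice, so the tests measure only the spread between libraries, which may be partly technical. Atorvastatin and lower doses of ZCL were also given in the study and were not analysed here.

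Interferons are secreted proteins that bind cell surface receptors and activate Janus kinases. Type I interferons act mainly through a complex that contains STAT2 and IRF9 and binds the interferon-stimulated response element (ISRE), while interferon gamma acts mainly through the gamma-activated site (GAS). In an artery these programs are known from macrophages, T cells, endothelium and smooth muscle, and in plaques they have been studied most in macrophages.

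Promoters carrying the ISRE are shown for 6 members. Within each role of the list, they are the first with an element before the annotated start, with Ifit1 and Ifit3 sharing a role. They were not picked by differences between groups. Windows of 60 bases were taken from the RefSeq promoter table on GRCm38.p6, which runs from 250 bases before to 50 bases after each annotated start. Each is read 5′ to 3′ on the strand of the gene, and capitals mark every match to GAAANNGAAA or to its reverse complement TTTCNNTTTC, where N is any base. The windows lie at chr10:128270251-128270310 on the plus strand for Stat2, chr19:34640760-34640819 plus for Ifit1, chr19:34583357-34583416 plus for Ifit3, chr12:26456538-26456597 minus for Rsad2, chr4:156200862-156200921 minus for Isg15 and chr3:142620579-142620638 plus for Gbp2.
Stat2: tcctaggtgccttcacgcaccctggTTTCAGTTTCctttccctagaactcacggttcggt
Ifit1: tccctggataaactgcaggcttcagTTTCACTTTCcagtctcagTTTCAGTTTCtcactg
Ifit3: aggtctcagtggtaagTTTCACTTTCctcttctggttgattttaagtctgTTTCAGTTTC
Rsad2: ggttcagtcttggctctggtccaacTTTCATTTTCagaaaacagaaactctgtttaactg
Isg15: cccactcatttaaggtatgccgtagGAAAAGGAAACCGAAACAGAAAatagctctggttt
Gbp2: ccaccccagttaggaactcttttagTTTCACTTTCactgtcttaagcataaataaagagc

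The Ifit1 and Ifit3 windows held 2 separate elements each and the Isg15 window 3 overlapping ones. Of the 39 members, 31 matched the promoter table, and 15 of them carried an ISRE. Counted per promoter, 16 of 36 member promoters had one (44.4%), against 1131 of 32851 promoters of all genes (3.44%). A GAS, searched as TTCNNNGAA, which reads the same on both strands, lay in 8 of the 36 (22.2%), against 8.30% of all promoters. All 4 guanylate-binding protein genes carried an ISRE, and Gbp5 and Gbp7 carried a GAS as well. Of the genes that stood highest in the high dose libraries, Ifit1 and Ifit3 had the ISRE, whereas Oasl1 and Oasl2 had no match to these letters in the window. Such matches are a description of the letters only.

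Depth and tissue makeup differed between libraries. Values are FPKM, fragments scaled to gene length and library total, so a level is relative to the rest of its library. Whole fragments could be recovered from the FPKM steps, and they summed to between 11654488 in control 2 and 20680051 in model 1. Apoe checked the control labels only, since high dose and model share the genotype and it cannot tell them apart. It had 30.3, 93.7 and 25.4 FPKM in high dose, 18.9, 33.4 and 24.5 FPKM in model and 829, 1006 and 339.9 FPKM in control. Markers of smooth muscle and endothelium were present in every library. Heart muscle markers, summed over 8 genes, reached 7299.95 FPKM or more in high dose 2 and 3 and control 1 and 2, and lay at or below 83.1 FPKM in the other 5 libraries. Airway markers reached 30003 FPKM in high dose 2 and 7875 FPKM in control 2. Control 2 also had the highest sums of T and NK cell markers (98.8 FPKM) and of B cell markers (184 FPKM). Counts are also given for the 5 libraries low in heart muscle genes, which are high dose 1, model 1 to 3 and control 3. They leave 1 library each in high dose and control, and these stood apart in other ways: high dose 1 had 1572 FPKM of sympathetic and chromaffin cell markers, against at most 1.57 FPKM in the models, and the lowest smooth muscle sum (449 FPKM), and control 3 had the highest adipocyte sum (11961 FPKM).

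The members covered a wide range of levels. Averaged over the 9 libraries, Ifi27l2a, which encodes a small membrane protein, led with 123 FPKM, followed by the virus-tethering gene Bst2 with 71.9 FPKM and Lgals3bp with 56.5 FPKM. At the low end, Oas3 averaged 0.842 FPKM, Psmb8 0.217 FPKM and Tap1 0.117 FPKM. Counting error was small for most members: Isg15 rested on 98 to 486 fragments per library and Gbp2 on 516 to 1697. Oas3 rested on 2 to 146, and Psmb8 and Tap1 on at most 41 and 35. A threshold of at least 1 FPKM in at least 3 libraries was passed by 37 of the 39, Psmb8 and Tap1 being the exceptions, and by 12895 genes of the table.

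**Figure D1:**
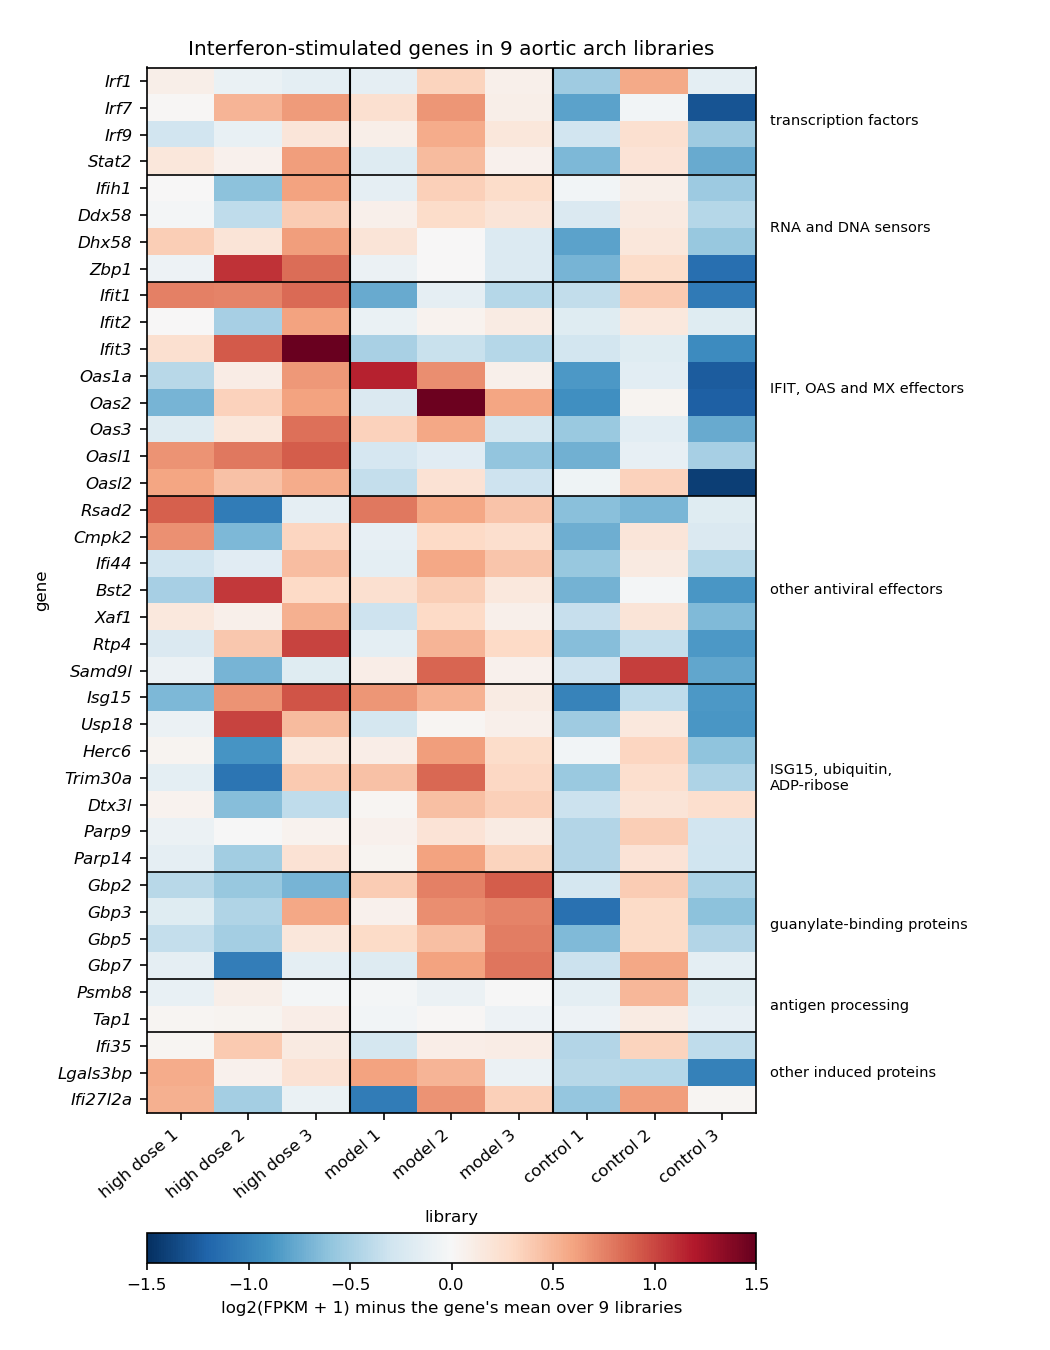
Colour shows log2(FPKM + 1) minus the gene's mean over the 9 libraries, for 39 genes (rows, grouped by role) and 9 libraries (columns, with black lines between high dose, model and control). Control 1 and control 3 are the bluest columns, the Ifit1, Ifit3, Oasl1 and Oasl2 rows are red in the 3 high dose libraries, and the guanylate-binding rows are reddest in model 2 and model 3.

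The first question was whether the aortas of ZCL-treated mice differed from those of untreated model mice in interferon-stimulated genes. The list had no common direction. A member is called higher or lower here by the mean of log2(FPKM + 1): 17 of 39 members were higher in high dose, beside 50.1% of all genes tested, and the median log2 difference was -0.07, beside a median of 0.00080 over all genes tested. Groups did not overlap for 6 members higher in high dose, Ifit1, Ifit3, Oasl1, Oasl2, Dhx58 and Tap1, and for 4 members lower, Gbp2, Gbp5, Samd9l and Parp9. Those are 15.4% and 10.3% of the members, beside 11.7% and 10.9% of all genes tested, so the counts were near the background. Tap1 did not pass the expression threshold. Among the 37 members tested, 15 were higher, and the shares without overlap were 13.5% and 10.8%. In bulk tissue, fewer cells of a type and less RNA per cell cannot be told apart. By limma with Benjamini-Hochberg adjustment over all genes, 0 of 37 members tested and 0% of all genes tested had an adjusted p under 0.05, and voom on the recovered fragments also called 0. At an unadjusted p under 0.05, 3 members were higher and 3 lower, beside 6.86% and 6.55% of all genes tested. Without high dose 3, limma called 45 genes of the table, and the members gave 0 calls in that fit too. Within the 5 libraries low in heart muscle genes, where high dose 1 alone was set against the models, 14 members were higher in high dose, beside 50.8% of all genes tested there.

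The second question was whether model aortas differed from control aortas. Here most of the list lay on the same side: 35 of 39 members were higher in model, beside 48.7% of all genes tested, and the median log2 difference was 0.40, beside -0.010 over all genes tested. The members without overlap were 9 and all higher in model, namely Irf7, Oas1a, Rsad2, Bst2, Rtp4, Isg15, Trim30a, Gbp5 and Lgals3bp. They make up 23.1% of the members, beside 6.91% of all genes tested, and 0 members were lower without overlap, beside 9.06%. Among the 37 members tested, 35 were higher, and 24.3% were higher without overlap. The 4 members lower in model were Ifit1, Psmb8, Tap1 and Ifi27l2a. By limma, 0 members and 0% of all genes tested passed after adjustment, as with voom, and 10 members were higher and 0 lower at an unadjusted p under 0.05, beside 3.62% and 2.75% of all genes tested. The result leaned on which control libraries were used. Without control 2 all 39 members were higher in model, beside 58.2% of all genes tested, and the median was 0.68 beside 0.085. Without control 3 the count was 32, beside 44.1% of all genes tested. In the 5 libraries low in heart muscle genes, where control 3 was the only control, 38 members were higher, beside 62.1% of all genes tested there, with a median of 0.78 beside 0.15. When limma weighted each library by how far it lay from its group, it called 7 members, all higher in model, beside 684 genes (5.30%), of which 261 (2.02% of all genes tested) were higher.

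High dose aortas were also set against control aortas, a comparison that shares its libraries with the other 2. Here 30 of 39 members were higher in high dose, beside 50.2% of all genes tested, and the median log2 difference was 0.36, beside 0.0022 over all genes tested. Members without overlap were Irf7, Dhx58, Ifit1, Ifit3, Oasl1, Oasl2, Rtp4 and Lgals3bp, all 8 of them higher in high dose, which is 20.5% of the members beside 3.66% of all genes tested. Lower in high dose without overlap were 0 members, beside 5.02% of all genes tested. Among the 37 members tested, 29 were higher, and 21.6% were higher without overlap. By limma 0 members and 0% of all genes tested passed after adjustment, and by voom also 0. At an unadjusted p under 0.05, 10 members were higher and 0 lower, beside 2.64% and 2.80% of all genes tested. The median was 0.21 without control 1 and 0.58 without control 2, beside -0.012 and 0.089 over all genes tested. In the 5 libraries low in heart muscle genes this was high dose 1 against control 3, the library lowest of all 9 for 19 members. There 38 members were higher in high dose, beside 59.2% of all genes tested, with a median of 0.53 beside 0.13.

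**Figure D2:**
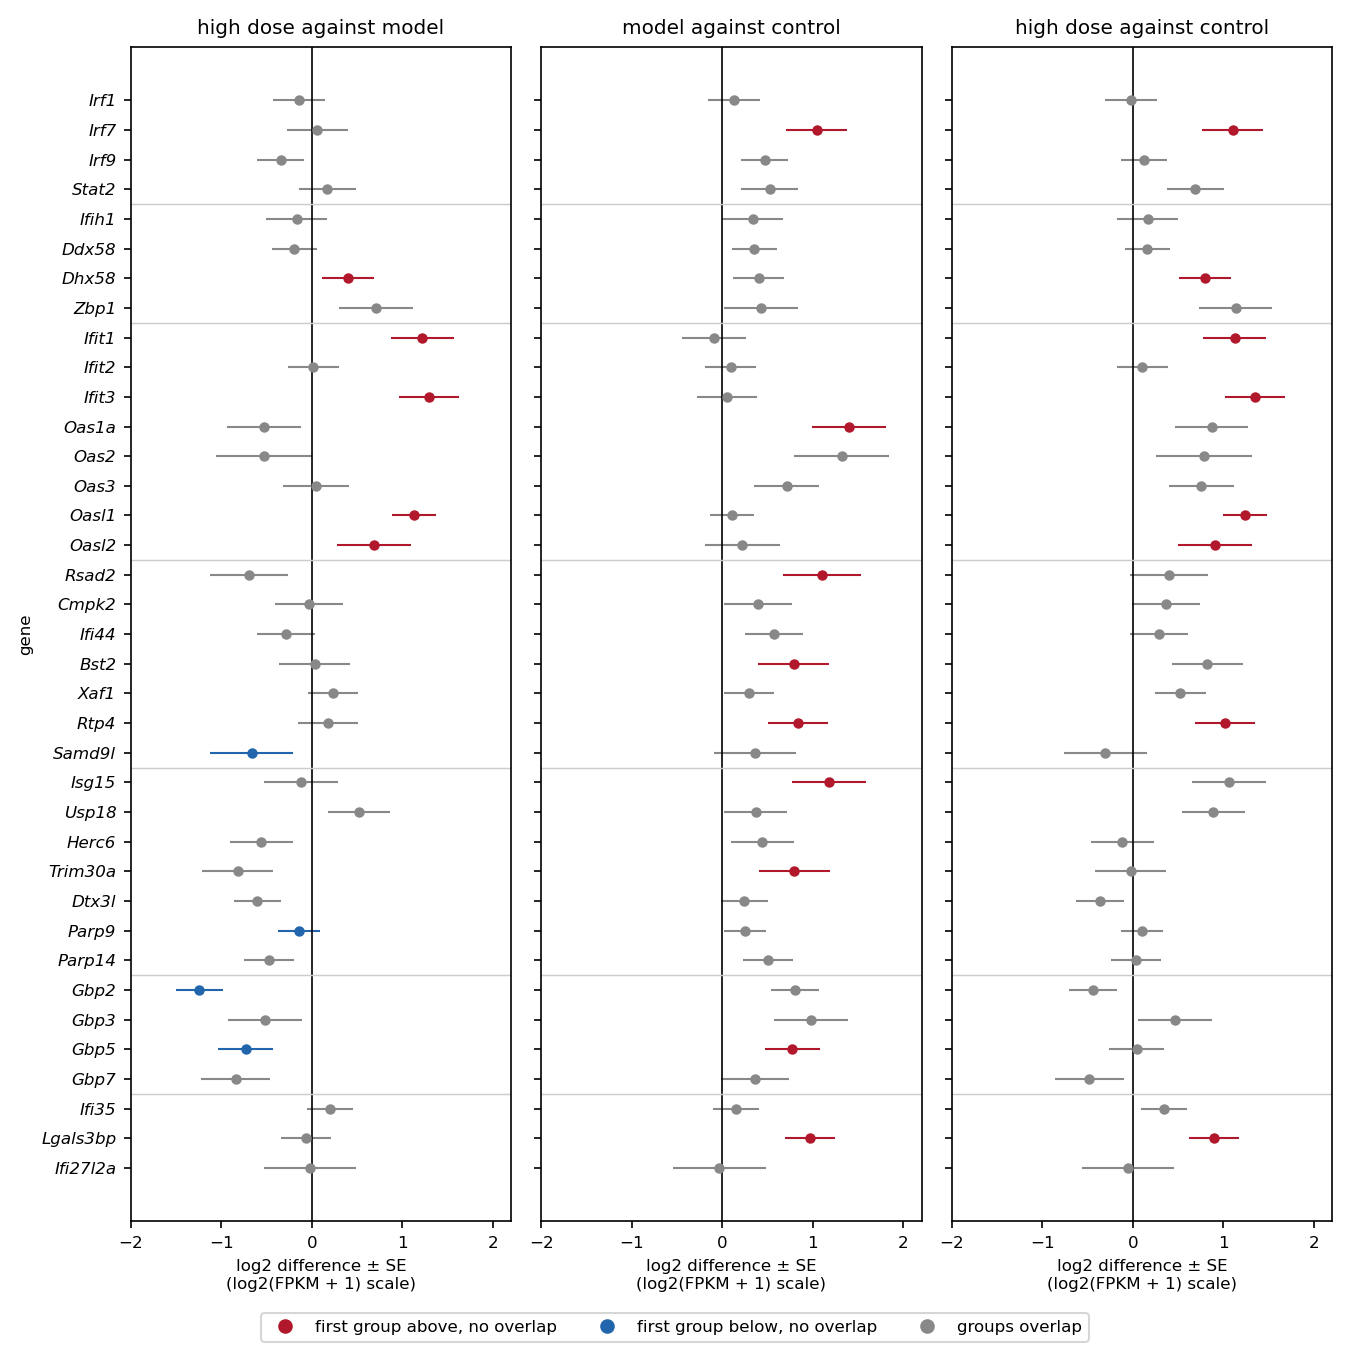
Points are log2 differences on the log2(FPKM + 1) scale with standard errors from limma, for the 37 members tested (rows) in each comparison (panels); red and blue mark members whose groups did not overlap. In the panel of model against control every coloured point lies to the right of 0, while the panel of high dose against model has Ifit1, Ifit3, Oasl1, Oasl2 and Dhx58 to the right and Samd9l, Parp9, Gbp2 and Gbp5 to the left.

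Among the transcription factors, Irf7, the factor that amplifies type I interferon production and is itself induced by interferon, separated the ApoE-/- groups from control. It had 19.0, 27.3 and 30.0 FPKM in high dose, 22.4, 30.3 and 20.1 FPKM in model and 10.4, 18.3 and 7.08 FPKM in control libraries. All 6 ApoE-/- libraries lay above all 3 control libraries, while high dose and model overlapped. The log2 difference was 1.04 ± 0.341 (SE) for model against control (limma adjusted p = 0.708) and 1.10 ± 0.341 for high dose against control (limma adjusted p = 0.832). Between high dose and model it was 0.06 ± 0.341 (limma adjusted p = 0.950), a value that changed sign with the libraries used. Irf7 overlaps Phrf1 on the opposite strand, Irf1 overlaps Gm17334 on the opposite strand and Irf9 overlaps Rnf31 on the same strand, so their reads may be mixed. Stat2, a subunit of the complex that binds the ISRE, had 19.8, 18.2 and 27.4 FPKM in high dose, 15.2, 24.6 and 18.4 FPKM in model and 10.6, 20.4 and 9.97 FPKM in control. Control 1 and 3 were the lowest of the 9, and control 2 stood among the ApoE-/- libraries. Irf9, the DNA-binding subunit of that complex, had 13.1, 14.9 and 18.4 FPKM in high dose, 17.3, 24.2 and 18.3 FPKM in model and 13.1, 19.2 and 10.9 FPKM in control. Irf1, which is induced strongly by interferon gamma, had 22.3, 19.5 and 18.8 FPKM in high dose, 18.9, 26.6 and 22.2 FPKM in model and 14.2, 31.7 and 18.9 FPKM in control. Both overlapped across all 3 groups, and the highest Irf1 value of all belonged to control 2.

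The sensors recognise viral or misplaced nucleic acid in the cytosol. Zbp1, which binds Z-form nucleic acid and can trigger necroptosis, had 4.42, 11.0 and 9.18 FPKM in high dose, 4.36, 4.74 and 3.94 FPKM in model and 2.50, 5.87 and 1.60 FPKM in control. High dose 2 and 3 stood above all other libraries and high dose 1 did not. For high dose against control the log2 difference was 1.14 ± 0.406 (limma adjusted p = 0.832). Dhx58, which encodes LGP2, a helicase that tunes the other RNA sensors, had 6.07, 5.26 and 7.42 FPKM in high dose, 5.26, 4.49 and 3.76 FPKM in model and 2.14, 5.16 and 2.68 FPKM in control. The lowest high dose value lay only just above the highest value of each other group, and the log2 difference of high dose against model was 0.40 ± 0.284 (limma adjusted p = 0.532). Ifih1, which encodes the long double-stranded RNA sensor MDA5, had 4.26, 2.41 and 6.96 FPKM in high dose, 3.75, 5.72 and 5.36 FPKM in model and 4.11, 4.55 and 2.59 FPKM in control. These 3 groups overlapped, as they did for Ddx58, the RIG-I gene, at 6.03 to 11.3 FPKM.

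The IFIT proteins bind foreign RNA and block its translation, and the high dose libraries stood apart for some genes of this family, not for all. Ifit1 had 11.4, 11.3 and 12.2 FPKM in high dose, 3.36, 5.73 and 4.49 FPKM in model and 4.72, 8.67 and 2.54 FPKM in control. The 3 high dose values were close together and above all 6 others. The log2 difference was 1.22 ± 0.350 for high dose against model (limma adjusted p = 0.260) and 1.12 ± 0.350 for high dose against control (limma adjusted p = 0.832). Ifit3 had 12.5, 20.6 and 31.0 FPKM in high dose, 7.16, 8.07 and 7.50 FPKM in model and 8.43, 9.09 and 4.97 FPKM in control. Again each high dose library exceeded the other 6, but high dose 1 was far below high dose 3, and model and control overlapped. For high dose against model the log2 difference was 1.30 ± 0.333 (limma adjusted p = 0.238), and it was 0.66 in the 5 libraries low in heart muscle genes, where high dose 1 alone stands for the group. Ifit3b, a near-identical neighbour of Ifit3 whose reads the counting may have split arbitrarily, had 5.62, 5.68 and 9.29 FPKM in high dose, 2.19, 3.16 and 2.11 FPKM in model and 3.52, 4.01 and 1.54 FPKM in control, with the high dose values again above the other 6. Ifit2, the third family member listed, overlapped across groups at 4.53 to 10.9 FPKM. The relatives Ifit1bl1 and Ifit1bl2 also overlapped across groups, with their highest values in control 1 (3.53 and 2.38 FPKM).

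The oligoadenylate synthetases make the messenger that activates RNase L, and their relatives on chromosome 5 split by group. Oasl1, a synthetase-like protein without that activity that is known in mice to restrain translation of Irf7, had 4.09, 4.51 and 4.99 FPKM in high dose, 1.67, 1.84 and 1.12 FPKM in model and 0.934, 1.93 and 1.26 FPKM in control. The 3 high dose values stood well above the other 6, levels that rested on 148 to 168 fragments per library in high dose, 38 to 80 in model and 34 to 52 in control. The log2 difference was 1.13 ± 0.242 for high dose against model (limma adjusted p = 0.173) and 1.24 ± 0.242 for high dose against control (limma adjusted p = 0.569). Oasl2 had 24.6, 22.2 and 24.1 FPKM in high dose, 12.3, 18.7 and 12.7 FPKM in model and 15.2, 20.7 and 5.42 FPKM in control. Its high dose libraries again stood above the rest, by a log2 difference of 0.69 ± 0.412 over model (limma adjusted p = 0.458). Oas1a had another order, with 2.47, 4.01 and 6.25 FPKM in high dose, 9.34, 6.49 and 3.87 FPKM in model and 1.55, 3.13 and 0.956 FPKM in control. The model libraries lay above control without overlap and the high dose libraries overlapped with both, and the log2 difference of model against control was 1.40 ± 0.406 (limma adjusted p = 0.688). Oas2 had 2.71, 6.61 and 8.15 FPKM in high dose, 4.15, 15.6 and 8.08 FPKM in model and 2.17, 5.19 and 1.56 FPKM in control. Model 2 was far above the others there, and the difference of model against control was 1.32 ± 0.526 (limma adjusted p = 0.746). Oas1a has near-identical relatives in the mouse genome, so its reads may be shared with them. The relative Oas1g had 0.652, 3.40 and 4.16 FPKM in high dose, 2.01, 2.43 and 0.676 FPKM in model and 0.391, 0.772 and 0.335 FPKM in control. Unlike Oas1a, it was highest in high dose 2 and 3, and its groups overlapped. Of the 8 IFIT and OAS members measured, 6 were higher in high dose than in model, 7 were higher in model than in control and 8 were higher in high dose than in control.

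**Figure D3:**
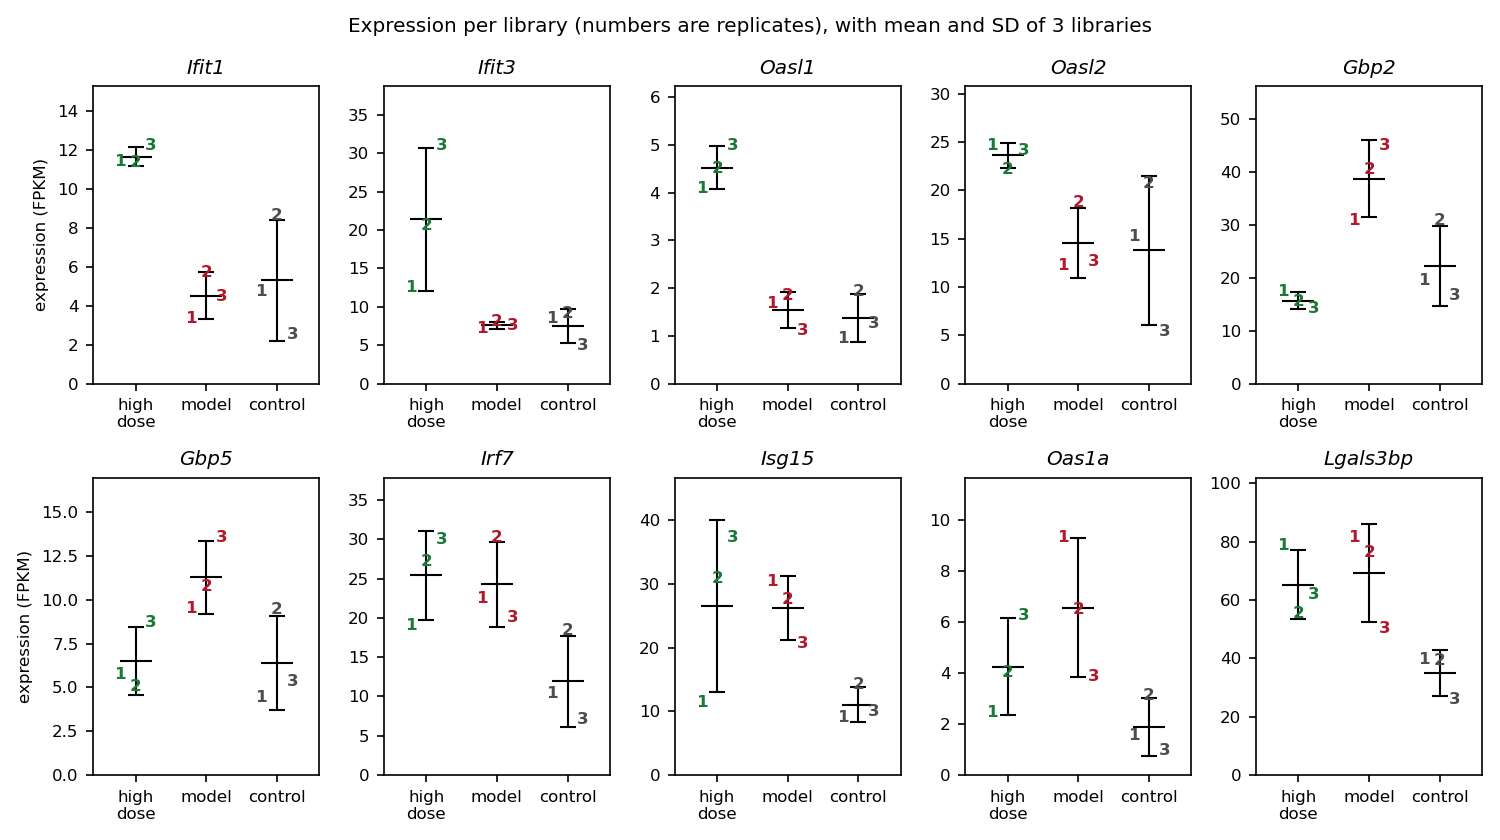
Expression in FPKM of 10 members (panels) in the high dose, model and control groups; each digit is a library and gives its replicate number, and bars show the mean and SD of 3 libraries. Ifit1, Ifit3, Oasl1 and Oasl2 have their 3 high dose values on top, Gbp2 and Gbp5 their 3 model values above high dose, and Irf7, Isg15, Oas1a and Lgals3bp their 3 model values above control.

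The other antiviral effectors were higher in model than in control in 7 of 7 cases. Rsad2, which encodes viperin, an enzyme that makes a chain-terminating nucleotide, had 23.8, 5.47 and 11.2 FPKM in high dose, 22.1, 18.9 and 17.0 FPKM in model and 7.65, 7.29 and 10.8 FPKM in control. Model exceeded control without overlap, while the high dose libraries covered the whole range, with high dose 1 the highest and high dose 2 the lowest of all 9. The log2 difference of model against control was 1.10 ± 0.430 (limma adjusted p = 0.740). Bst2, which encodes tetherin, a protein that holds budding virus at the cell surface, had 46.7, 139 and 81.7 FPKM in high dose, 78.8, 85.8 and 74.0 FPKM in model and 40.3, 65.2 and 35.7 FPKM in control. Model libraries lay above control within a narrow range and high dose libraries on both sides of them, with a log2 difference of model against control of 0.79 ± 0.392 (limma adjusted p = 0.763). Rtp4, a receptor chaperone that restricts some RNA viruses, averaged 13.9 ± 6.26 FPKM in high dose, 11.6 ± 2.78 FPKM in model and 6.01 ± 1.24 FPKM in control (SD, n = 3 each). All 6 ApoE-/- libraries exceeded the control libraries, by log2 differences of 1.02 ± 0.332 for high dose (limma adjusted p = 0.832) and 0.84 ± 0.332 for model (limma adjusted p = 0.746). Reads of Rtp4 may be mixed with those of Masp1, which overlaps it on the opposite strand. Samd9l, a restriction factor against poxviruses, averaged 17.2 ± 3.83 FPKM in high dose, 28.4 ± 9.93 FPKM in model and 24.6 ± 17.7 FPKM in control (SD, n = 3 each), with control 2 the highest library at 44.8 FPKM. Cmpk2, Ifi44 and Xaf1 overlapped across groups and ranged from 1.37 to 10.7 FPKM.

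Isg15, a ubiquitin-like protein that is attached to newly made proteins during an interferon response, had 11.4, 30.8 and 37.4 FPKM in high dose, 30.4, 27.6 and 20.6 FPKM in model and 8.97, 14.2 and 9.98 FPKM in control. Model exceeded control without overlap, and high dose 2 and 3 were the highest of all while high dose 1 lay among the controls. The log2 difference was 1.18 ± 0.411 for model against control (limma adjusted p = 0.713) and 1.06 ± 0.411 for high dose against control (limma adjusted p = 0.863), and 0.18 between high dose 1 and control 3, the libraries low in heart muscle genes. Usp18, which removes ISG15 and dampens the type I receptor, had 4.85, 11.5 and 7.64 FPKM in high dose, 4.17, 5.32 and 5.53 FPKM in model and 3.27, 5.89 and 2.39 FPKM in control. High dose 2 and 3 led here as well, and the log2 difference of high dose against control was 0.89 ± 0.347 (limma adjusted p = 0.863). Parp14, an ADP-ribosyltransferase, had 6.52, 4.75 and 8.55 FPKM in high dose, 7.47, 11.5 and 9.40 FPKM in model and 5.06, 8.52 and 5.70 FPKM in control, with overlap throughout. Apart from Isg15 and Usp18, the genes of this group, Herc6, Trim30a, Dtx3l, Parp9 and Parp14, were lower in high dose than in model. Isg15 averaged 26.6 ± 13.5 FPKM in high dose and 26.2 ± 5.05 FPKM in model (SD, n = 3 each), while its log2 difference was -0.12 ± 0.411 (limma adjusted p = 0.918), so the sign depends on the scale. Dtx3l, a ubiquitin ligase that works together with Parp9, averaged 3.61 ± 1.14 FPKM in high dose, 5.92 ± 1.01 FPKM in model and 4.89 ± 1.20 FPKM in control (SD, n = 3 each), a log2 difference of -0.60 ± 0.263 between high dose and model (limma adjusted p = 0.370). Dtx3l and Parp9 overlap on opposite strands, so their reads may not be separable. Trim30a, which restrains inflammatory signalling in mice, averaged 6.55 ± 3.57 FPKM in high dose, 11.4 ± 2.57 FPKM in model and 6.29 ± 2.38 FPKM in control (SD, n = 3 each). Its model libraries lay above all control libraries, and high dose 3 at 10.1 FPKM reached into the model range.

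The guanylate-binding proteins are GTPases that attack the vacuoles of intracellular pathogens and are induced mainly by interferon gamma. The 4 listed lie close together at chr3:142493978-142638008 (GRCm38). All 4 were lower in high dose than in model, with a median log2 difference of -0.79, and all 4 were higher in model than in control, with a median of 0.79. Gbp2 had 17.3, 15.5 and 14.1 FPKM in high dose, 30.8, 40.5 and 45.0 FPKM in model and 19.4, 30.9 and 16.6 FPKM in control. The 3 high dose values were below all 3 model values, and control 2 reached the lowest model library. The log2 difference was -1.24 ± 0.263 for high dose against model (limma adjusted p = 0.172), the smallest adjusted p of any member in that comparison. For model against control it was 0.80 ± 0.263 (limma adjusted p = 0.708), and for high dose against control -0.44 ± 0.263 (limma adjusted p = 0.888). Gbp5, which also promotes inflammasome assembly, had 5.72, 5.05 and 8.69 FPKM in high dose, 9.50, 10.7 and 13.6 FPKM in model and 4.41, 9.46 and 5.35 FPKM in control. The model libraries were the 3 highest of the 9, with control 2 just below them. The log2 difference was -0.73 ± 0.303 for high dose against model (limma adjusted p = 0.362) and 0.77 ± 0.303 for model against control (limma adjusted p = 0.740). Gbp7 averaged 7.06 ± 2.55 FPKM in high dose, 13.5 ± 4.75 FPKM in model and 10.2 ± 3.97 FPKM in control (SD, n = 3 each). Gbp3 averaged 14.3 ± 5.95 FPKM in high dose, 20.4 ± 5.10 FPKM in model and 10.5 ± 5.87 FPKM in control (SD, n = 3 each). Both overlapped between high dose and model. The comparisons share the model libraries, so a high model level enters both with opposite sign.

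Of the antigen processing genes, Psmb8, a subunit of the immunoproteasome, had 0.113, 0.282 and 0.179 FPKM in high dose, 0.184, 0.132 and 0.204 FPKM in model and 0.0891, 0.705 and 0.0629 FPKM in control. Tap1, a subunit of the peptide transporter, had 0.135, 0.146 and 0.200 FPKM in high dose, 0.0883, 0.129 and 0.0564 FPKM in model and 0.0580, 0.214 and 0.0261 FPKM in control. Control 2 held the highest value of both genes. These levels were far below those of Psmb10, another immunoproteasome subunit, at 16.4 to 34.6 FPKM. Both genes lie in the major histocompatibility region of chromosome 17, and of the 52 genes of the table within 500 kb on either side of Tap1, 4 passed the expression threshold (7.69%), beside 58.6% of the whole table. Brd2, a broadly expressed gene of that window, lay between 0.0969 and 0.199 FPKM. The cause of the low values was not tested.

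Lgals3bp, a secreted glycoprotein that binds galectins, had 78.5, 55.5 and 61.8 FPKM in high dose, 81.6, 76.3 and 50.2 FPKM in model and 39.8, 39.2 and 25.8 FPKM in control. Both ApoE-/- groups lay above control without overlap, by log2 differences of 0.89 ± 0.276 for high dose (limma adjusted p = 0.832) and 0.97 ± 0.276 for model (limma adjusted p = 0.688), and they overlapped with each other. Ifi27l2a had 166, 80.4 and 107 FPKM in high dose, 55.0, 184 and 147 FPKM in model and 76.5, 177 and 117 FPKM in control. Its 3 groups overlapped. Ifi35, a binding partner of other interferon-induced proteins, ranged from 20.5 to 37.2 FPKM with overlap throughout.

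The 9 interferon genes looked up were close to silent in these libraries, and no others were searched. Ifnb1, Ifna1, Ifna2, Ifna4, Ifnl2 and Ifnl3 were at 0 in all 9 libraries, which allows up to 3 fragments in each, a limit that covers counting error only. Ifnk was seen only in model 1, at 0.0577 FPKM, and Ifne only in high dose 3, at 0.101 FPKM. Ifng, the gamma interferon made by T and NK cells, had 2.22 FPKM from 32 fragments in control 2 and at most 0.114 FPKM from 2 fragments elsewhere. The receptor genes were expressed throughout. The type I receptor subunits lay at 9.95 to 14.3 FPKM for Ifnar1 and 20.5 to 36.0 FPKM for Ifnar2, and the gamma receptor subunits at 47.2 to 80.9 FPKM for Ifngr1 and 16.0 to 54.4 FPKM for Ifngr2, each with overlap between all groups.

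The other pathway genes tested were 9 receptors and kinases, 6 STAT and IRF factors, 9 upstream sensors and adaptors and 4 inhibitors. Of these, 0 had a limma adjusted p under 0.05 in any comparison, and in each comparison 1 had an unadjusted p under 0.05. Of all genes tested, 6.86% were higher and 6.55% lower at that unadjusted limma threshold for high dose against model. For model against control the shares were 3.62% and 2.75%, and for high dose against control 2.64% and 2.80%. A single pathway gene is thus near the background. Of the 9 receptor and kinase genes, 1 was higher in high dose than in model, 7 were higher in model than in control and 6 were higher in high dose than in control. Tyk2, the kinase bound to the type I receptor, had 7.53, 8.08 and 9.99 FPKM in high dose, 15.3, 15.2 and 13.2 FPKM in model and 10.3, 13.8 and 6.44 FPKM in control. The high dose libraries lay below the model libraries without overlap, by a log2 difference of -0.71 ± 0.265 (limma adjusted p = 0.342). Among 10 upstream sensors and adaptors, 3 were higher in high dose than in model, and 8 were higher in model than in control. Tlr7, the endosomal sensor of single-stranded RNA, had 2.17, 1.58 and 5.07 FPKM in high dose, 6.28, 5.06 and 2.53 FPKM in model and 0.610, 1.86 and 0.251 FPKM in control. Its model libraries were above control without overlap, by a log2 difference of 1.59 ± 0.448 (limma adjusted p = 0.688). Tbk1, the kinase that activates IRF3 and IRF7, had 16.9, 10.5 and 19.5 FPKM in high dose, 13.1, 13.5 and 12.1 FPKM in model and 10.6, 13.4 and 7.94 FPKM in control. High dose and control overlapped there, with a log2 difference of 0.50 ± 0.268 (limma adjusted p = 0.888). The 1 pathway gene with an unadjusted limma p under 0.05 for high dose against control was Tlr7, not Tbk1. Its log2 difference there was 1.04, and these groups overlapped. Of 4 inhibitors, Socs1, Socs3, Pias1 and Ptpn2, 3 were higher in high dose than in model, and 2 in model than in control.

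Within each group, 1 library was the highest for many members at once. Control 2 was the highest control library for 36 of the 39 members, beside 56.1% of all genes tested. Model 2 was the highest model library for 26 members, beside 32.1% of all genes tested, and high dose 3 the highest high dose library for 24, beside 30.7%. Over all 9 libraries, high dose 3 was the highest for 12 members and model 2 for 9, while control 3 was the lowest for 19 and control 1 for 10. The median log2(FPKM + 1) of the 39 members was 3.21, 2.97 and 3.55 in high dose, 3.27, 3.65 and 3.39 in model and 2.77, 3.27 and 2.68 in control. Control 2 thus sat among the ApoE-/- libraries, and the other 2 controls below all of them. The spread within groups was close to that of other genes: the median coefficient of variation of the members, beside that over all genes tested, was 36.1% beside 33.6% in high dose, 21.6% beside 20.5% in model and 38.3% beside 31.7% in control.

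**Figure D4:**
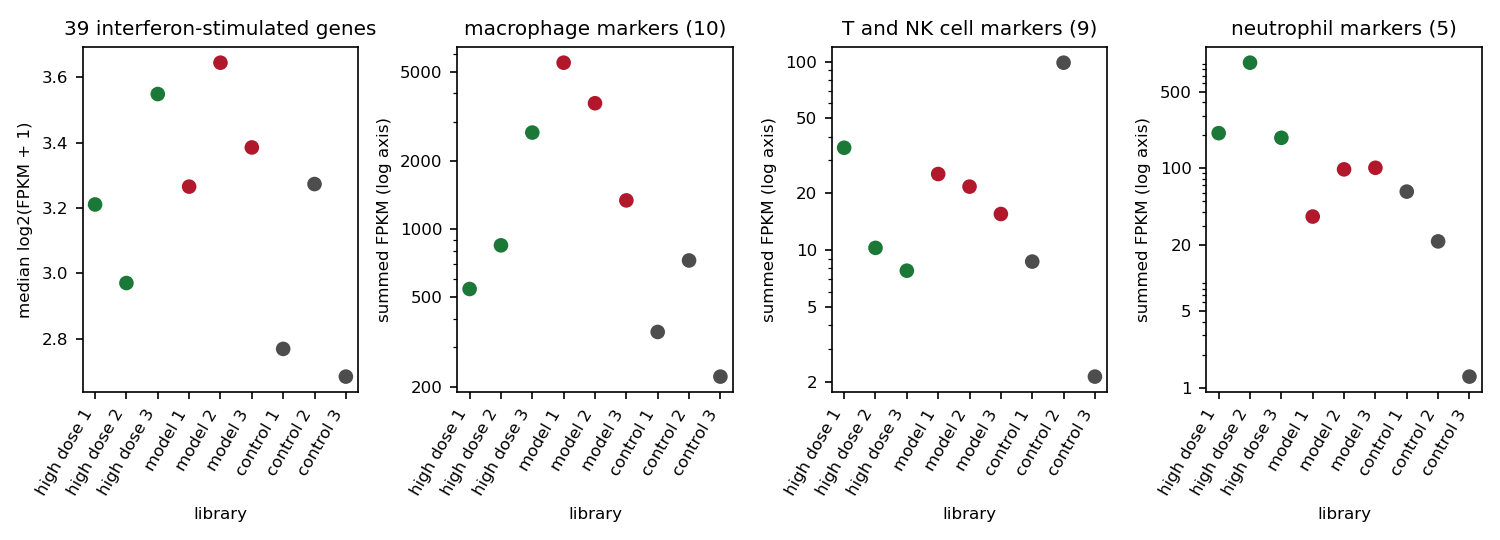
The left panel gives the median log2(FPKM + 1) of the 39 members in each library, and the other panels the summed FPKM of macrophage, T and NK cell and neutrophil markers on log axes, with libraries in the order high dose, model, control. Control 2 has the highest member median of the controls and the highest T and NK cell sum of all libraries. Model 1 has the highest macrophage sum, most of it from Lyz2, and the lowest member median of the models.

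Markers of other cell types gave the following levels in the same libraries, with directions by the mean of log2(FPKM + 1). The 10 macrophage markers summed to 545 to 2684 FPKM in high dose, 1344 to 5473 FPKM in model and 223 to 729 FPKM in control. All 10 were higher in model than in control without overlap, and on the log2 scale all 10 were lower in high dose than in model, 1 of them without overlap. Cd14 was the exception in mean FPKM, with 22.6 FPKM in high dose and 21.7 FPKM in model. None of the macrophage markers was at 0 in any library. Within the model group, model 1 had the highest macrophage sum, of which Lyz2 gave 4275 FPKM, and was the lowest model library for 25 of the 39 members. Adgre1, Itgam and Cd14 were highest in model 2 among the models, and the other macrophage markers were highest in model 1. The 5 neutrophil markers summed to 190 to 919 FPKM in high dose, 36.3 to 101 FPKM in model and 1.26 to 61.4 FPKM in control, and 4 of them were higher in high dose than in model without overlap. The 9 T and NK cell markers summed to 7.77 to 34.9 FPKM in high dose, 15.5 to 25.3 FPKM in model and 2.13 to 98.8 FPKM in control, the 98.8 FPKM being control 2, which also held the Ifng fragments. The 4 markers of plasmacytoid dendritic cells, the main producers of type I interferon in blood, summed to at most 6.25 FPKM. That sum was in control 2, where Klk1 alone gave 4.83 FPKM. The other markers of this list, Siglech, Ccr9 and Pacsin1, were highest in high dose 1, at 1.31, 0.405 and 1.19 FPKM. Between high dose and model, all 7 red cell markers were lower in high dose, 6 of them without overlap and with a median log2 difference of -2.64. All 6 endothelium markers were lower in high dose, 2 of them without overlap, as were all 5 smooth muscle markers, 1 of them without overlap. All 4 sympathetic and chromaffin cell markers were higher in high dose, 3 of them without overlap, and all 8 heart muscle markers, 1 of them without overlap. Of all genes tested, 11.7% were higher and 10.9% lower in high dose than in model without overlap, so a single such marker in a list is near the background. For model above control that share was 6.91%. The part of these cells in the levels of the interferon-stimulated genes was not tested.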

How the data were processed

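Total RNA of mouse aortic arch was extracted with TRIzol and made into messenger RNA libraries with an NEBNext Ultra kit, per the labels' protocols. The authors deposited FPKM values per gene, fragments scaled to gene length and library total. Per the submitters' processing notes, the builds were GRCm38.p5 and mm10. Which aligner, counter and strand setting were used is not given in the sources used here. Columns were matched to samples by group name and replicate number. The members and gene lists were chosen with earlier results of these data known.

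All 9 libraries entered 1 limma fit (version 3.58.1, R 4.3.3) of log2(FPKM + 1) with empirical Bayes with a trend and two-sided Benjamini-Hochberg adjusted p-values over the 12895 genes with at least 1 FPKM in at least 3 libraries. This scale understates changes of low genes. The procedure was also run on simulated data in which each gene varied independently. That run held no shifts shared by a whole library, so it cannot show how the fit behaves with them. Whole fragments were recovered for 17934 of 17940 genes seen in at least 2 libraries (99.97%, within 0.01 fragment), and limma's voom was run on them as an alternative chosen after seeing the data.

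The 39 members in the table were reported by role. Values per library were given for a fixed set of members, for the 3 of smallest p in each comparison, and for Dhx58, Oasl2, Ifit3b and Oas1g, which were chosen after their values were seen. Pathway genes were given by counts, with values for the interferon genes, 4 receptor genes and the 2 of smallest p per comparison, of which 1 gene is not reported here. Positions came from GENCODE M21 on GRCm38 and promoters from RefSeq on GRCm38.p6. Figures were drawn with matplotlib 3.10.9 in Python 3.11.15. Tried in addition were other scalings (median-ratio, quantile), a smaller pseudocount (0.1), no or a stricter filter (mean of 5 FPKM), a robust fit, array weights, a fit of each pair of groups alone, a replicate block, leaving out each library and keeping the 5 libraries low in heart muscle genes.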

Additional observations from a re-analysis of the deposited data

How the results depend on the processing

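With 3 libraries per group and unequal tissue makeup, calls were sensitive to how libraries were weighted. For high dose against model, genes called (0 in the reported fit) were 6 with array weights, 1 with only the 2 groups compared, 33 in the 5 libraries low in heart muscle genes, where high dose 1 is the whole group and is assumed to vary like the others, and 0 to 45 with single libraries left out. For model against control they were 684 with array weights, 261 of them higher in model, where the weights ran from 0.379 for control 3 to 5.92 for model 2. Members higher in high dose than in model were 17 as reported and 11 under quantile normalization, which moved the median of all genes tested to -0.10. Left out singly, libraries gave 13 to 19 members higher in high dose than in model, 32 to 39 in model than in control and 25 to 36 in high dose than in control. The shares of all genes tested that were higher moved too, over 47.4% to 52.1%, 44.1% to 58.2% and 43.9% to 58.0%. The Irf7 difference of high dose against model, close to 0, was -0.013 under quantile normalization, -0.31 in the 5 libraries and -0.066 to 0.25 with single libraries left out. That of Isg15 was 0.090 with array weights, -1.11 in the 5 libraries and -0.43 to 0.38 with single libraries left out. Gbp2 in high dose against control was 0.060 in the 5 libraries. Members without overlap between model and control were 16 after median-ratio rescaling and 18 after quantile normalization, all higher in model, against 9, while the share of all genes tested that were higher without overlap was 9.14% and 10.7%, against 6.91%. Ifit1, Ifit3, Oasl1 and Gbp2 kept their direction between high dose and model in every alternative that tested them. Their log2 differences were 1.06 to 1.42, 0.66 to 1.62, 0.97 to 1.54 and -1.40 to -1.10, and the lowest limma adjusted p among them was 0.0668. Oasl1 did not pass the stricter filter. Because the groups of these genes did not overlap, leaving out or weighting libraries could not reverse the signs, so those fits do not test the direction. With the replicate number as a block, genes called stayed at 0 in all 3 comparisons and members higher at 17, 35 and 30; deviations of same-numbered libraries correlated at -0.522 to 0.306, so the numbers were not taken as pairs. The causes of these shifts were not tested.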
